A study of Saccharomyces cerevisiae with 4 samples.

Results

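The 44 genes described here encode the yeast proteasome, its assembly chaperones, a pair of proteasome activators or partners, and the transcription factor Rpn4. They were taken by gene name from the 6782 gene rows of the deposited table. All 44 names were found, and each of the 44 had a mean of at least 1 CPM (counts scaled to library size, which the authors had adjusted), the minimum for the 6037 genes tested. They comprise 7 alpha and 7 beta subunits of the 20S core, 10 subunits of the 19S base, 9 of the 19S lid, 8 assembly chaperones, the 2 activators or partners BLM10 and ECM29, and RPN4. The values came from budding yeast of the W303 background. All cultures carried 6xIAPP, a construct of islet amyloid polypeptide, as a single copy at LEU2 behind a promoter that responds to estradiol. IAPP is a pancreatic peptide hormone that forms amyloid. The 2 induced cultures received 100 nM estradiol and the 2 uninduced cultures received DMSO, each for 6 h, while growing in log phase. Toxicity of the construct is named in the series title as what was assayed, and per the design text the 2 cultures of each arm were biological replicates.

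No culture with estradiol and without the construct was analysed here, so the inducer and the construct cannot be told apart. The reads of the construct itself were not analysed here. Recovered reads numbered 11694161 and 14724917 in the induced libraries and 15582338 and 10397606 in the uninduced libraries. At these depths 43 of the 44 genes had at least 350 reads in every library. POC4 had the fewest, 57 in induced library 1. Within a replicate pair the median absolute log2 difference of the 44 genes was 0.044 in induced and 0.048 in uninduced libraries. Log2 fold changes give induced minus uninduced, as value ± SE, with 1 added to each CPM. A gene is said to have risen or fallen when its adjusted p in limma, over all 6037 genes, was under 0.05.

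The proteasome is the protease that degrades ubiquitin-tagged proteins in the cytosol and nucleus. Its barrel-shaped 20S core is built of outer alpha rings, which gate the entrance, and inner beta rings, which hold the catalytic sites. The 19S particle caps the barrel. The ATPases of its base unfold substrates and feed them into the core, and its lid removes the ubiquitin chain. Dedicated chaperones help to build core and cap and are released or degraded as the particle matures. In yeast the short-lived factor Rpn4 activates proteasome genes through a promoter element known as PACE and is itself degraded by the proteasome, which forms a feedback loop.

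The promoters are shown first, because that element is what most subunit genes have in common. The element GGTGGCAAA was searched on both strands (TTTGCCACC on the opposite one) in the 300 bases before the coding start, in the RefSeq sequence of the R64 build. It was present upstream of 28 of the 44 genes (63.6%) and of 73 of 6001 coding genes with a full window (1.22%). The element was searched because it is known from proteasome genes, so the higher share in them follows from that choice. By sub-complex it was found in 6 of 7 alpha, 6 of 7 beta, 8 of 10 base and 7 of 9 lid genes, in 0 of 8 assembly chaperone genes, in ECM29 but not in BLM10, and not in RPN4. In the members it lay 75 to 174 bases before the coding start. The stretches below have 81 bases each, run 5′ to 3′ on the strand of the gene, and show the element in capitals. PRE1, RPT5 and RPN6 are the genes with the element that rose most in the core, the base and the lid. PRE1 lies on chromosome V (177657-177737, plus strand), RPT5 on chromosome XV (544829-544909, plus strand) and RPN6 on chromosome IV (286764-286844, minus strand).
PRE1: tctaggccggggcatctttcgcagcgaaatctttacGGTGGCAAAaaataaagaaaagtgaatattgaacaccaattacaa
RPT5: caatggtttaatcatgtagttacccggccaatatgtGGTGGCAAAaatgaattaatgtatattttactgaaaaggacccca
RPN6: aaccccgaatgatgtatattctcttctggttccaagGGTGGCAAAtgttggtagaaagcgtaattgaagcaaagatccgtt

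The exact element was also present in called genes with the smallest rises. PRE9 (chromosome VII, 761197-761277, plus strand) and RPT1 (chromosome XI, 174022-174102, plus strand) are shown for that reason, a choice made after their values were seen. In RPT1 the element reads on the opposite strand.
PRE9: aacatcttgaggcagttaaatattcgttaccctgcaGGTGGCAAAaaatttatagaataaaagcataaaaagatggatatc
RPT1: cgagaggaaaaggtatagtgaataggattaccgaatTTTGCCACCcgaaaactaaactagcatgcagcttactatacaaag

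The other 6 subunit genes held the element with 1 mismatch, a search added after the exact matches were seen. PRE5, PUP1 and RPN8 had AGTGGCAAA, which 0.850% of the 6001 windows contained. RPN10, RPN13 and SEM1 had GGTGGCGAA, found in 0.433%. With at most 1 mismatch allowed, 33 of 33 subunit genes had a match, as did 1 of 8 assembly chaperone genes (PBA1) and 7.73% of all windows. SEM1 (chromosome IV, 1201981-1202061, plus strand) and RPN8 (chromosome XV, 817059-817139, minus strand) are shown because they had the highest and the lowest log2 fold change among the subunits; RPN8 was not called. The element with its mismatch is in capitals.
SEM1: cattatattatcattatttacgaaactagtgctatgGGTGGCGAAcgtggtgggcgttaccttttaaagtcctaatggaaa
RPN8: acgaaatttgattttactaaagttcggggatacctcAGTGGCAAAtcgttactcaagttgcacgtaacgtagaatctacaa

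ADD66 (chromosome XI, 49891-49971, minus strand), the assembly chaperone gene that rose most, and RPN4 (chromosome IV, 416790-416870, minus strand) are shown as genes whose 300 bases held no exact element, so nothing is in capitals. A match is a run of letters and not a measured binding site. A window with no match shows only that those letters are not in it.
ADD66: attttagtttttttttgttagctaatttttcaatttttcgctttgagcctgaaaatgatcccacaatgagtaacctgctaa
RPN4: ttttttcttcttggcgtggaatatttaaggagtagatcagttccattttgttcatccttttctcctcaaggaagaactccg

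Messages of the proteasome were higher in the induced cultures by a modest and broadly shared step. Of the 44 genes, 41 rose, 1 fell (POC4) and 2 were not called (RPN8 and IRC25). Their median log2 fold change was 0.39, a ratio of 1.31. Over all 6037 genes 35.6% rose and 37% fell, with a median of 0.00 on the same log2 scale. Both induced libraries lay above both uninduced libraries in 42 of the 44 genes, against 42.9% of all genes. Tested against a 1.2-fold change instead of no change, 22 of the 44 were called higher and 1 lower, against 21.3% of all genes called higher. Only PBA1 and ADD66 had a fitted rise of at least 2-fold. The authors' deposited table had 17 of the 44 higher at an FDR under 0.05 and 1 lower, against 19% of its rows higher. Under total-read scaling the all-gene median shifted to 0.12, with 2664 genes called higher and 1776 lower over the table, in place of 2152 and 2235. The median of the 44 was then 0.52, against 0.12 for all genes. In bulk RNA of this kind, fewer cells of a kind and less RNA per cell cannot be told apart.

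**Figure D1:**
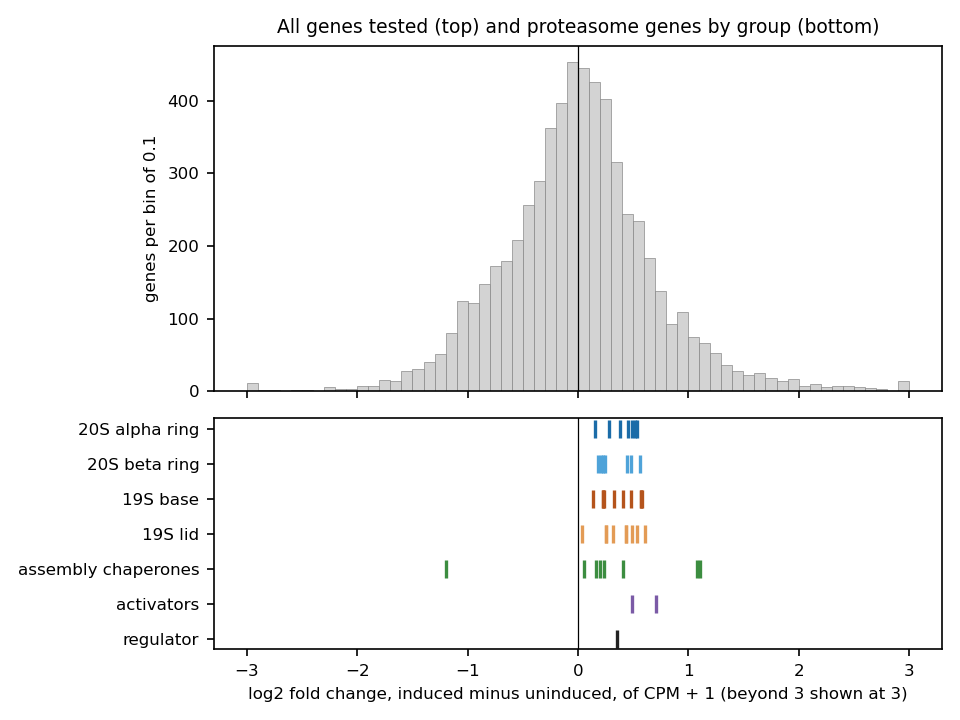
Top, number of genes per bin of 0.1 in log2 fold change (induced minus uninduced, CPM + 1) over all 6037 genes tested; bottom, 1 tick per proteasome gene, by sub-complex. The subunit genes sit in a narrow band from 0.04 to 0.60, while the assembly chaperones spread from -1.20 to 1.11.

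Among the alpha subunits 7 of 7 rose, with changes from 0.15 to 0.54 and a median of 0.45. PRE10, the alpha7 subunit, was at 342 and 345 CPM in the induced libraries, against 239 and 234 CPM in the uninduced libraries (0.54 ± 0.05, adjusted p = 4.02e-07). PRE5, alpha6, was at 302 and 321 CPM induced and at 219 and 216 CPM uninduced (0.51 ± 0.05, adjusted p = 1.17e-06). PRE8, alpha2, was at 220.0 and 219 CPM induced and at 149 and 164 CPM uninduced (0.49 ± 0.06, adjusted p = 4.63e-06). In these 3 genes both induced values stood well clear of both uninduced values. SCL1 (alpha1) and PRE6 (alpha4) rose by 0.38 and 0.45, and PUP2 (alpha5) by 0.28. The smallest rise was in PRE9, alpha3, the 1 core subunit that yeast can live without, at 230.4 and 239 CPM induced and 205 and 218 CPM uninduced (0.15 ± 0.05, adjusted p = 0.019). The PRE9 groups did not overlap, but the call was lost without induced library 2 (adjusted p = 0.128), without uninduced library 1 (adjusted p = 0.131) and without the intensity trend in the variance (adjusted p = 0.0738).

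The beta subunits also rose in 7 of 7 genes, with a median of 0.24 and a range of 0.18 to 0.57; the difference from the alpha ring was not tested. PRE1, beta4, rose most. It was at 321 and 366 CPM in the induced libraries and at 230.0 and 233 CPM in the uninduced libraries (0.57 ± 0.06, adjusted p = 2.5e-06). PRE1 also had the widest spread within the induced pair of any member but POC4, 0.19 on the log2 scale, and its groups stayed apart. PRE4, beta7, was at 373 and 389 CPM induced and at 269.9 and 288 CPM uninduced (0.45 ± 0.05, adjusted p = 5.69e-06).

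The genes of the catalytic beta subunits changed by unequal amounts. PRE3, beta1, which cuts after acidic residues, was at 184 and 202 CPM induced and at 133 and 143 CPM uninduced (0.48 ± 0.06, adjusted p = 1.26e-05). PUP1, beta2, which cuts after basic residues, was at 168 and 184 CPM induced and at 150.3 and 153 CPM uninduced (0.21 ± 0.06, adjusted p = 0.00523). PRE2, beta5, which cuts after hydrophobic residues, was at 342 and 341 CPM induced and at 306 and 299 CPM uninduced (0.18 ± 0.05, adjusted p = 0.00463). In each of the 3 the induced values were above the uninduced ones, most clearly in PRE3; the difference between their changes was not tested. Without induced library 2 PUP1 was no longer called (adjusted p = 0.0842). The non-catalytic PUP3 (beta3) and PRE7 (beta6) rose by 0.23 and 0.24. Summed over the 14 core genes, the level was 3916 and 4063 CPM in the induced libraries and 3035 and 3098 CPM in the uninduced libraries, a ratio of means of 1.30. The exact two-sided permutation test of this sum gave p = 0.333, the smallest value 2 libraries against 2 allow.

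**Figure D2:**
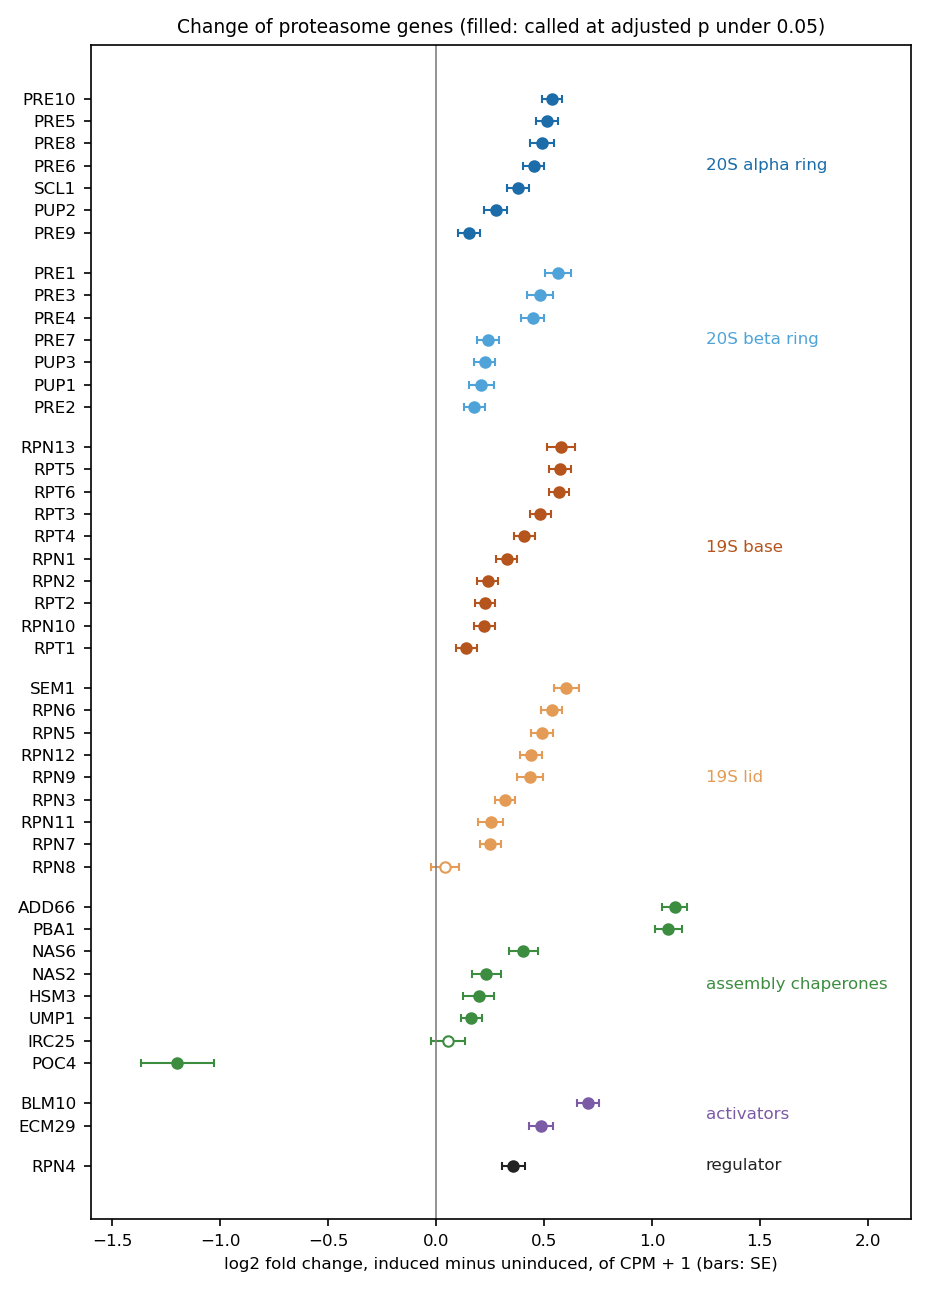
Log2 fold change (induced minus uninduced, CPM + 1) of the 44 genes, ordered within each sub-complex; points are fitted values, bars are SE, and open points were not called at an adjusted p under 0.05. Of the 33 subunit genes, 32 lie to the right of 0 and are called, and RPN8 is open.

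All 10 genes of the base rose, by 0.14 to 0.58, with a median of 0.37. RPN13, a ubiquitin receptor, was at 129 and 141 CPM in the induced libraries, against 93.1 and 86.9 CPM in the uninduced libraries (0.58 ± 0.06, adjusted p = 3.24e-06). RPT5, an ATPase of the ring, was at 313 and 324 CPM induced and at 219.9 and 208 CPM uninduced (0.57 ± 0.05, adjusted p = 4.26e-07). RPT6, its fellow ATPase, was at 405 and 407 CPM induced and at 269 and 278 CPM uninduced (0.57 ± 0.05, adjusted p = 2.42e-07). The induced values of these 3 genes were all above the uninduced ones, with ratios of means of 1.50, 1.49 and 1.49. Of the other ATPases of the ring, RPT3 rose by 0.48, RPT4 by 0.41 and RPT2 by 0.23. RPT1 was at 373 and 382 CPM induced and at 332 and 353 CPM uninduced (0.14 ± 0.05, adjusted p = 0.0244). The RPT1 groups did not overlap, but the call was lost without induced library 1 (adjusted p = 0.0592), without induced library 2 (adjusted p = 0.123), without uninduced library 1 (adjusted p = 0.179) and without the intensity trend (adjusted p = 0.0881). The scaffold genes RPN1 and RPN2 rose by 0.33 and 0.24, and RPN10, another ubiquitin receptor, by 0.22.

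In the lid 8 of 9 genes rose and 0 fell, with a median of 0.43. SEM1, a small disordered subunit that is shared with other complexes, rose most of all 33 subunits. It was at 142 and 152 CPM in the induced libraries, against 96.1 and 97.0 CPM in the uninduced libraries (0.60 ± 0.06, adjusted p = 7.25e-07). RPN6, a scaffold of the lid, was at 506 and 507 CPM induced and at 355 and 344 CPM uninduced (0.54 ± 0.05, adjusted p = 4.45e-07). RPN5, another scaffold, was at 527 and 533 CPM induced and at 366 and 389.9 CPM uninduced (0.49 ± 0.05, adjusted p = 1.84e-06). The groups of all 3 stood apart, with ratios of means of 1.53, 1.45 and 1.40. RPN12 rose by 0.44, RPN9 by 0.43, RPN3 by 0.32 and RPN7 by 0.25, and all of these encode structural lid subunits.

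RPN11 and RPN8, whose proteins form the dimer that carries the deubiquitinating site, were at the low end of the lid. So was RPN7, outside that dimer, at 0.251 beside 0.253 for RPN11. RPN11, the deubiquitinase itself, was at 251 and 280.2 CPM in the induced libraries and at 219.8 and 225 CPM in the uninduced libraries (0.25 ± 0.06, adjusted p = 0.00158). RPN8, its catalytically inactive partner, was at 182 and 200.2 CPM induced and at 176 and 196 CPM uninduced (0.039 ± 0.064, adjusted p = 0.597). The RPN11 groups stood apart, whereas the RPN8 groups overlapped, which they did in no other member. RPN8 is the 1 subunit with no call. Its sign was not stable, at -0.029 without induced library 2 and -0.039 without uninduced library 1. With total-read scaling it was called higher at 0.16 (adjusted p = 0.034).

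Summed levels of the 19S parts were also higher in the induced libraries. The base summed to 3962 and 3933 CPM in the induced libraries and to 3106 and 3109 CPM in the uninduced libraries, a ratio of 1.27. The lid summed to 2577 and 2676 CPM induced and to 1982 and 2036 CPM uninduced, a ratio of 1.31. In both the induced sums were above the uninduced ones, and the exact permutation p was again at its limit of 0.333.

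Per kb of coding length, the unit in which genes can be compared with each other, the 33 subunit genes spanned less than 4-fold. The highest level was 3.63 and 3.67 times the lowest in the induced libraries, and 3.46 and 3.32 times in the uninduced libraries. The lowest was RPN9 in each library, at 160 CPM per kb induced and 118 CPM per kb uninduced on average. The highest was PRE6 in induced library 1 and both uninduced libraries, and PRE1 in induced library 2. The coefficient of variation over the 33 genes was 33.6% and 34.3% in the induced libraries and 30.2% and 29.9% in the uninduced libraries. On this scale UMP1, an assembly chaperone, had the highest level of all 44 genes in uninduced cells, with 424 CPM per kb, and was the sixth in induced cells, with 474 CPM per kb. The lowest levels were in POC4 with 13.1 CPM per kb induced and 32.5 CPM per kb uninduced, ECM29 with 22.7 CPM per kb induced and 16.1 CPM per kb uninduced, and BLM10 with 41.9 CPM per kb induced and 25.7 CPM per kb uninduced.

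**Figure D3:**
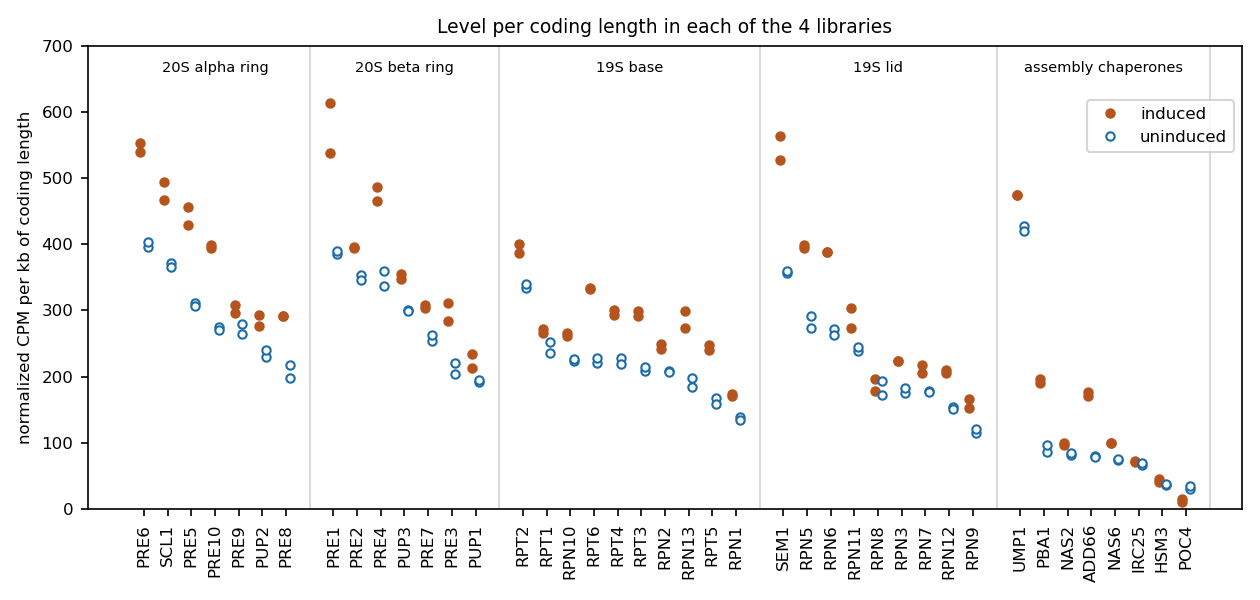
Normalized CPM per kb of coding length in each library for the 33 subunit genes and the 8 assembly chaperones (filled points, induced libraries; open points, uninduced libraries). Subunit genes lie at 114 or above in every library. Of the chaperones UMP1 lies highest, above every subunit gene in the uninduced libraries. It lies below PRE1, PRE6 and SEM1 in both induced libraries, and also below SCL1 and PRE4 in induced library 2.

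The assembly chaperones, which act on partial particles, were the part of the set that did not move as a block. Of 8 genes 6 rose, 1 fell and 1 was not called, with a median of 0.21 and a range from -1.20 to 1.11. Over all genes 35.6% rose and 37% fell. Against a 1.2-fold change 2 of the 8 were called higher and 1 lower, a share near the 21.3% of all genes called higher. PBA1 and ADD66 encode the partners of the Pba1-Pba2 heterodimer, which binds the outer face of the forming alpha ring. PBA1 (YLR199C) was at 158 and 163 CPM in the induced libraries, against 71.6 and 80.1 CPM in the uninduced libraries (1.08 ± 0.06, adjusted p = 9.06e-09). ADD66 (YKL206C) was at 137 and 142 CPM induced and at 64.9 and 63.6 CPM uninduced (1.11 ± 0.06, adjusted p = 2.93e-09). Both genes were a little over 2-fold higher, with ratios of means of 2.12 and 2.17, and no library broke the order. Their levels per kb were close within each library: PBA1 was 1.12 and 1.11 times ADD66 in the induced libraries and 1.07 and 1.22 times in the uninduced libraries.

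The other heterodimer of the alpha ring, Pba3-Pba4, which sits on the inner face of the ring and guides the order of its subunits, went differently. POC4 (YPL144W), which encodes Pba4, was at 4.63 and 7.07 CPM in the induced libraries, against 13.3 and 15.7 CPM in the uninduced libraries (-1.20 ± 0.17, adjusted p = 3.52e-05). These levels rest on 57 and 110 reads induced and on 202 and 157 reads uninduced. The induced values were about 0.403 times the uninduced ones and did not overlap with them, although the induced pair differed by 0.52 on the log2 scale, more than any other member. POC4 stayed called in all 15 alternative settings. IRC25, which encodes Pba3, was at 38.9 and 38.0 CPM induced and at 36.2 and 37.9 CPM uninduced (0.054 ± 0.078, adjusted p = 0.555), with the induced values just above the uninduced ones. Per kb, POC4 was 0.144 and 0.224 times IRC25 in the induced libraries and 0.444 and 0.502 times in the uninduced libraries, so the messages of these partners were further apart in the induced libraries. In the R64 annotation no other gene overlapped the coding span of POC4 (chromosome XVI, 280480-280926) or of any other member.

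UMP1, the chaperone that is shut into the core and becomes its first substrate, was at 212 and 212 CPM in the induced libraries and at 191 and 188 CPM in the uninduced libraries (0.16 ± 0.05, adjusted p = 0.00938). Its groups were apart, with an induced level 1.12 times the uninduced one. Of the chaperones of the base ring, NAS6 rose by 0.40, NAS2 by 0.23 and HSM3 by 0.20, all small steps. RPN14, also a chaperone of the base, was not among the 8 chaperones counted here but in the list of other pathway genes below. RPN14 was not called (0.017 ± 0.061, adjusted p = 0.816), and its groups overlapped. The NAS2 call was lost without induced library 1 (adjusted p = 0.0696). The HSM3 call (adjusted p = 0.03) was lost in the unfiltered table, without the intensity trend, in DESeq2, without induced library 2 (adjusted p = 0.275) and without uninduced library 1 (adjusted p = 0.072). The 8 chaperones summed to 744 and 760 CPM in the induced libraries and to 535 and 548 CPM in the uninduced libraries, a ratio of 1.39. The exact permutation p was again 0.333. Most of the difference lay in PBA1 and ADD66, with means of 161 and 139 CPM induced and 75.8 and 64.3 CPM uninduced.

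**Figure D4:**
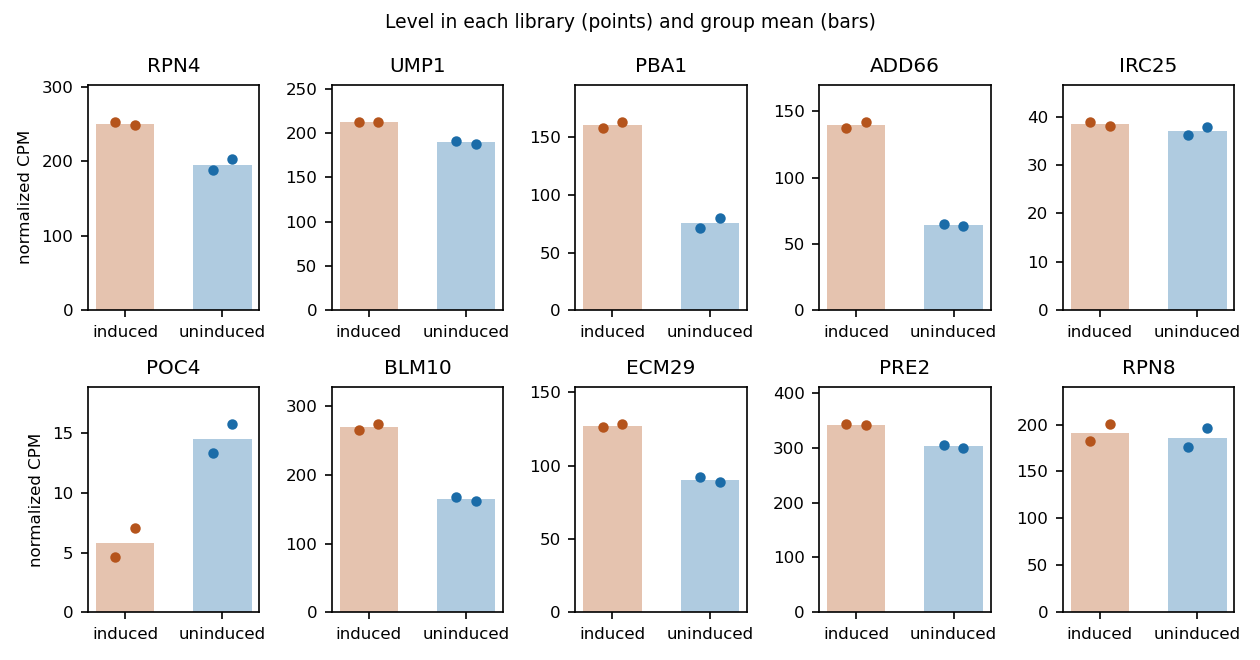
Normalized CPM in each library (points) with group means (bars, from 0) for 10 genes, with induced cultures at the left of each panel. PBA1, ADD66, BLM10 and ECM29 are clearly higher in the induced libraries, POC4 is lower, and RPN8 shows overlapping groups.

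BLM10 and ECM29, long genes of large proteins that bind the proteasome, both rose. BLM10, an alternative cap that opens the core without ATP, was at 265 and 274 CPM in the induced libraries, against 168 and 162 CPM in the uninduced libraries (0.70 ± 0.05, adjusted p = 5.21e-08). ECM29, an adaptor that holds core and cap together and recognizes faulty particles, was at 126 and 128 CPM induced and at 92.0 and 88.9 CPM uninduced (0.49 ± 0.06, adjusted p = 4.55e-06). Both were higher in each induced library, and the change of BLM10 was larger than that of any of the 33 subunits.

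RPN4 (YDL020C, chromosome IV, 415113-416708, minus strand), the regulator, was at 253 and 248 CPM in the induced libraries, against 188 and 203 CPM in the uninduced libraries (0.36 ± 0.05, adjusted p = 4.99e-05). Its groups did not overlap, and its ratio of means of 1.28 was close to those of the summed core and base. Against a 1.2-fold change RPN4 was not called, with a limma adjusted p of 0.103. In the authors' deposited statistics RPN4 had an FDR of 0.13. RPN4 is controlled largely by degradation of its protein, which was not measured.

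Changes of the subunit genes were set beside the promoter matches, with no test of a difference. The 27 subunit genes with it all rose, with a median of 0.41 and a range of 0.14 to 0.57. Of the 6 with 1 mismatch, 5 rose, with a median of 0.37 and a range of 0.04 to 0.60. Both kinds stood at both ends: RPT1 and PRE9 with the exact element and RPN8 with a mismatch at the low end, and SEM1 and RPN13 with a mismatch and RPT5 with the exact element at the high end. Outside the 44 genes, 42 tested genes had the exact element; 25 of them rose and 8 fell, with a median of 0.29, beside 35.6% higher, 37% lower and a median of 0.00 over all genes. Their changes ran from YBR284W at 1.91, BUD27 at 1.86 and PDI1, an ER oxidoreductase, at 1.61 to the ribosome biogenesis gene NOP14 at -0.78. Because both strands were searched, a gene that shares its upstream region with a divergent member can be counted by that member's element. Such neighbours were not set apart from these 42 genes. The core CAGCGTG of the element of the unfolded protein response, added after values were seen, was in 0 of the 44 windows and in 1.23% of all 6001.

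**Figure D5:**
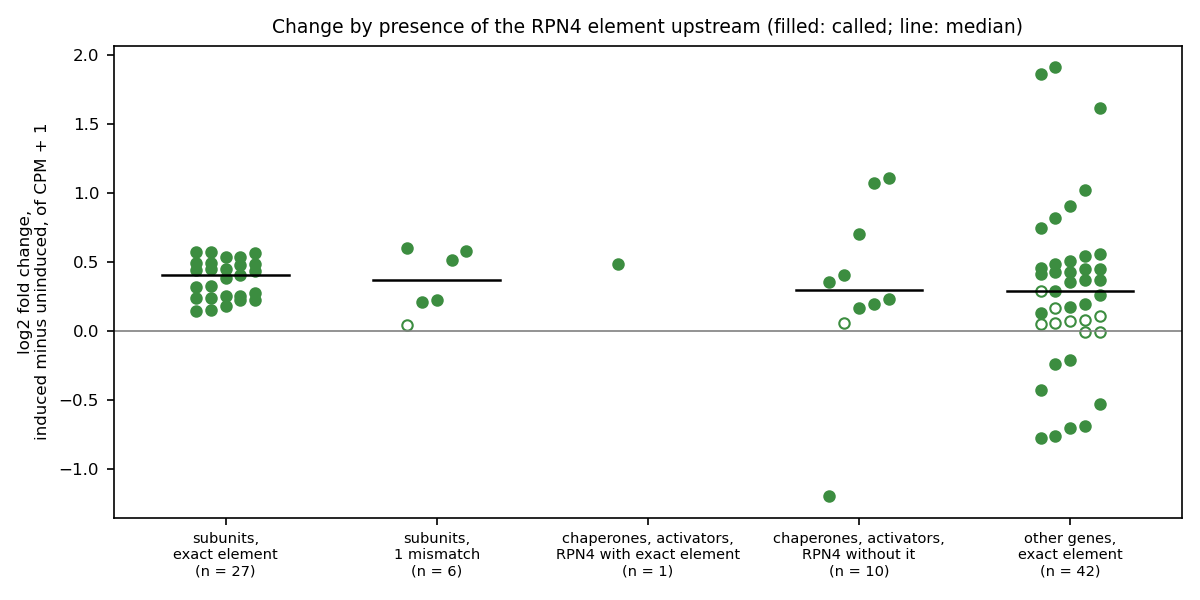
Log2 fold change (induced minus uninduced, CPM + 1) of genes grouped by the element GGTGGCAAA in the 300 bases before the coding start; each point is a gene, filled when called, and lines are medians. Subunits with the exact element and with 1 mismatch cover a similar range, and genes outside the set with the exact element reach from -0.78 to 1.91. Genes outside the set may share their element with a neighbouring member.

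A list of 22 other genes of the pathway was set beside the 44. Of these 15 rose, 3 fell and 4 were not called (RPN14, FUB1, PDR1 and PDR3), with a median of 0.21; over all genes 35.6% rose and 37% fell, with a median of 0.00. Against a 1.2-fold change 6 of the 22 were called higher and 0 lower, a share near the 21.3% of all genes called higher. SPG5, a proteasome-associated factor of stationary phase, was at 228 and 242 CPM in the induced libraries, against 73.9 and 75.7 CPM in the uninduced libraries (1.64 ± 0.05, adjusted p = 7.49e-11). UBR2, the ubiquitin ligase that targets Rpn4, was at 138 and 141 CPM induced and at 52.5 and 52.0 CPM uninduced (1.40 ± 0.06, adjusted p = 4.94e-10). NPL4, a cofactor of the unfoldase Cdc48, was at 147 and 143 CPM induced and at 83.6 and 85.6 CPM uninduced (0.77 ± 0.05, adjusted p = 5.09e-08). These 3 had the largest changes of the list, their groups lay far apart, and the first 2 exceeded every one of the 44 proteasome genes.

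The known controllers of Rpn4 did not move together. UBR2 works with the adaptor MUB1 and the ubiquitin-conjugating enzyme RAD6, whose messages were lower, MUB1 at -0.15 ± 0.07 (adjusted p = 0.04996) and RAD6 at -0.23 ± 0.08 (adjusted p = 0.0153). Of the transcription factors known to act on the RPN4 promoter, HSF1 rose by 0.56 ± 0.06 (adjusted p = 1.78e-06) and YAP1 by 0.26 ± 0.05 (adjusted p = 0.000424). PDR1 was at -0.11 ± 0.06 (adjusted p = 0.142, and 0.02 on the log2 scale with total-read scaling) and PDR3 at 0.14 ± 0.07 (adjusted p = 0.0797). In the ubiquitin supply, UBI4, which encodes polyubiquitin, rose by 0.42 and UBA1 by 0.20. UBP6, the ubiquitin-recycling enzyme bound to the proteasome, rose by 0.38. In the authors' deposited statistics the FDR was 0.26 for UBI4, 0.47 for UBA1 and 0.088 for UBP6. The shuttle factors that bring substrates to the proteasome split, with DDI1 at 0.29, DSK2 at 0.16 and RAD23 at -0.17 (adjusted p = 0.0151). The lower calls of MUB1, RAD6 and RAD23 were all lost without induced library 2, against a 1.2-fold change and with total-read scaling. Of these 3, 1 was left without uninduced library 1, without the intensity trend, with quantile normalization and in DESeq2.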

How the data were processed

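RNA was measured in 4 libraries, prepared with the TruSeq stranded kit from RNA extracted by hot acid phenol, and read on a HiSeq machine, per the labels' protocols. Per the submitters' processing notes, TopHat2 (2.0.13), HTSeq, edgeR and the builds sacCer3 and R64 were used, in roles not named. Neither annotation release nor strand setting nor filters are given in the sources used here, so reads from opposite strands may have been mixed. The authors deposited 1 table of 6782 gene rows. Its signal is CPM on an adjusted library size, per the file headers and the column sums, which were 949572 and 945865 for induced and 1026833 and 1041888 for uninduced libraries. Beside it stand the log2 fold change, p-value and FDR that the authors computed, used as description. A further 4 lines of the table were not analysed here.

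Each value was a whole multiple of the worth of 1 read, within 0.001 reads for 100% of values, which gave the reads. The step of uninduced library 2 (0.1002 CPM) is near a round decimal, so its reads are less certain. A count of 3 reads corresponded to 0.193 to 0.301 CPM. The planned test for CPM was used although the unit proved to be this adjusted form.

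Under R 4.3.3, limma 3.58.1 tested log2(CPM + 1) for the effect of group, with an intensity trend. P-values were two-sided, with Benjamini-Hochberg adjustment across 6037 genes. Rows with a mean under 1 CPM were left out, which removed 745 and none of the 44. Fold changes on this scale understate the change of low genes. Other settings were pseudocounts of 0.5 and 5, no filter, a filter at 5 CPM, no trend, a 1.2-fold null, total-read scaling, quantile normalization, a replicate block, each library left out, and edgeR (version 4.0.16) and DESeq2 (version 1.42.0) on recovered reads. The fit was tested on simulated reads.

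Members and lists were chosen with earlier results of these data known. All 44 members could be named. From each sub-complex the 3 largest changes and each uncalled gene were given by library, and RPN4, UMP1, BLM10, ECM29, PRE2, PRE3, PUP1 and RPN11 always were. Of the 22 further genes, the 3 largest changes and the controllers of Rpn4 were named, and the others named there were chosen after their values were seen. Promoters, coding lengths and spans were read from the RefSeq R64 genome, and all 44 members matched by locus tag.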

Additional observations from a re-analysis of the deposited data

How the results depend on the processing

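Of 660 values of the 44 genes under 15 alternatives, 624 kept their direction and their side of the threshold. The test against a 1.2-fold change lowered the count of higher calls to 22 for the 44 genes. By part it was 5 for the alpha ring, 3 for the beta ring, 5 for the base, 5 for the lid and 2 for the assembly chaperones. It was 6 for the 22 further genes. Over the table this test gave 1286 genes higher (21.3%) and 1399 lower. In the other settings 37 to 42 of the 44 were higher. Leaving out 1 library gave 37 to 41 higher. The median of the 44 moved to 0.52 with total-read scaling and to 0.46 with quantile normalization. The authors' deposited statistics, not among the 15 alternatives, had fewer calls, with 17 of the 44 higher at an FDR under 0.05. These were 2 of 7 alpha, 3 of 7 beta, 4 of 10 base and 4 of 9 lid genes, 2 of 8 assembly chaperones and both activators or partners. Of all deposited rows 19% were higher. RPN8 turned to -0.029 without induced library 2 and -0.039 without uninduced library 1, within a range of -0.039 to 0.12 over the 4 fits that leave out 1 library. The 3 lower calls among the 22 further genes became 1 without the intensity trend, 0 against a 1.2-fold change, 0 with total-read scaling, 1 with quantile normalization, 1 in DESeq2 and 0 to 2 with 1 library left out (0 without induced library 2, 1 without uninduced library 1). The cause of these shifts was not tested. Deviations of induced 1 and uninduced 1 had a correlation of -0.00881 over 5017 genes, so no shift shared by replicate number was seen. The labels do not say what a number marks, so whether the cultures were paired is not known. With the replicate as a block, 41 of the 44 were higher and 1 lower, with 2219 higher and 2293 lower over the table. With 2 libraries per group the precision is limited, most of all for POC4, which had the fewest reads.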
